A study of Oncorhynchus mykiss with 70 samples.

Results

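Smad4 is the common Smad: after an activin or myostatin receptor has phosphorylated a receptor-regulated Smad, Smad4 joins it, and the complex enters the nucleus and binds target genes. Rainbow trout descend from fish that doubled their genome, and so carry several smad4 genes. The gene pair smad4aa1 and smad4aa2 is described here over 70 samples of 23 adult trout tissues. These 2 genes are 2 of the 49 pathway genes of the probe panel and 2 of its 7 common Smad probes. They were chosen by name, because the share of each copy in the pair's counts differed between skeletal muscles in these same counts. Levels and shares among the muscles are therefore given as a description, with no test.

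RNA was counted with a custom NanoString panel, an assay in which colour-barcoded probes bound to RNA are counted without amplification. The fish came from clonal Swanson and Oregon State University lines, were 2 to 3 years old, were raised in recirculating water and were not treated, and all samples except the ovaries carry the label male. The groups are tissues: 22 samples from 7 tissues titled muscle (called skeletal muscles below) and 48 from 16 other tissues, among them Heart, Bulbus Arteriosus and Tongue. There were 2 samples of Caudal Skeletal Muscle, 4 of Adductor Skeletal Muscle, 4 of Pelvic Fin Skeletal Muscle and 3 of every other tissue. The design text calls the replicates biological, but the labels do not say which fish gave which sample. A p-value here thus covers the spread between samples, which may be technical, or, where tissues are the unit, between tissue totals. RNA extraction varied by tissue, so its part in a difference between tissues cannot be told apart. The panel holds no marker of muscle fibres or of other cell types, so the tissue labels could not be checked, and fewer cells that use a gene cannot be told apart from less RNA per cell.

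The authors' gene list places smad4aa1 (LOC110525240) on chromosome 6 and smad4aa2 (LOC101268920) on chromosome 11, both derived from ancestral chromosome 9a and both paired with the same northern pike gene. Matching identifiers of RefSeq (assembly USDA_OmykA_1.1) gave the same chromosomes. Each probe reads a target of 100 bases. The targets are shown because the share of a copy rests on the probes telling the copies apart; capitals mark the longest run that the targets have in common, at positions 74 to 79 of smad4aa1 and 85 to 90 of smad4aa2, counted from the 5′ end.
smad4aa1: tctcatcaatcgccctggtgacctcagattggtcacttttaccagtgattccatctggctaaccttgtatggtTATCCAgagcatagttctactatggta
smad4aa2: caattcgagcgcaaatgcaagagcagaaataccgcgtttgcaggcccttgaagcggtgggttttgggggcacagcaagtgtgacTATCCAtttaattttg
The shared run was 6 bases long, and neither target shared more than 8 with any of the other 5 common Smad targets. Targets were compared only with each other and not with the transcript of the other copy. Whether a probe also binds the other copy was therefore not tested. GC content was 44% for smad4aa1 and 49% for smad4aa2. The authors' list names no second target for either probe. How efficiently each probe binds is not known, so a share of counts is not a share of molecules, and only differences of the share between samples can be read.

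Total counts per sample ran from 52194 to 269554, and the 8 negative controls averaged 2.5 to 11.5 counts per sample. Taking 2 SD above a sample's mean negative control as the limit of detection, smad4aa2 was above it in all 70 samples and smad4aa1 in 60. The 10 samples in which smad4aa1 did not included Adductor Skeletal Muscle 1 and all 3 samples of Red Skeletal Muscle. Some libraries stood apart. In 8, of which 3 were muscle (Epaxial Skeletal Muscle 1, Adductor Skeletal Muscle 1 and Red Skeletal Muscle 3), 24 or fewer of the 49 genes were above the limit of detection. In 10 libraries outside the gonads, of which 4 were muscle (Pelvic Fin Skeletal Muscle 4, Hypaxial Skeletal Muscle 1, Red Skeletal Muscle 2 and Extraocular Muscle 1), inhab1, inhab2, mstnb1 and mstnb2 each held at least 20 counts. Levels below are reference-scaled counts: a sample's count divided by its reference-gene factor, which is the geometric mean of its actb, ef1a and tbp counts over the geometric mean of that value in all samples. The factor had a median of 0.349 over the 22 muscle samples and of 1.72 over the 48 others. The share is smad4aa1 counts as a percentage of smad4aa1 plus smad4aa2 counts and needs no scaling; intervals are exact Clopper-Pearson 95% intervals and cover counting error only.

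The skeletal muscles fell into 2 ranges by mean copy share, 4 between 45.8% and 59.7% and 3 between 19.0% and 23.7%. Single samples overlapped: Extraocular Muscle 1 (37.0%) and Red Skeletal Muscle 3 (34.4%) lay above Pelvic Fin Skeletal Muscle 3 (31.7%). The first range holds the caudal, epaxial, hypaxial and pelvic fin muscles. The second holds the adductor, extraocular and red muscles, whose means lie near the highest of the other tissues.

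Caudal Skeletal Muscle is headed Caudal Epaxial in the authors' deposited table of normalized signal and is counted here as a separate muscle. It had the highest mean share, 59.7% ± 2.71 (SD, n = 2). Its samples held 160 and 93 counts of smad4aa1. The same samples held 117 and 58 counts of smad4aa2. Each sample thus counted smad4aa1 above smad4aa2, at shares of 57.8% (51.7 to 63.6) and 61.6% (53.3 to 69.4).

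Epaxial Skeletal Muscle, the trunk muscle above the horizontal septum, followed at 57.3% ± 14.04 (SD, n = 3). Counts of smad4aa1 were 84, 167 and 191 in samples 1 to 3. Counts of smad4aa2 were 71, 63 and 233. The share was 54.2% (46.0 to 62.2) in sample 1, 72.6% (66.4 to 78.3) in sample 2 and 45.0% (40.2 to 49.9) in sample 3. Sample 2 had the highest share of all 70 samples, and its interval did not meet that of either replicate.

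Hypaxial Skeletal Muscle, the trunk muscle below the septum, had a mean share of 52.3% ± 5.79 (SD, n = 3). Its samples held 199, 156 and 247 counts of smad4aa1. For smad4aa2 the counts were 140, 151 and 274. The copies were close to equal in counts in samples 2 and 3, with shares of 50.8% (45.1 to 56.5) and 47.4% (43.1 to 51.8), and smad4aa1 was ahead in sample 1 at 58.7% (53.3 to 64.0).

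Pelvic Fin Skeletal Muscle, which moves the pelvic fin, had a mean share of 45.8% ± 12.8 (SD, n = 4). Counts of smad4aa1 were 58, 146, 73 and 85. Counts of smad4aa2 were 84, 90, 157 and 90. Shares of 40.8%, 61.9%, 31.7% and 48.6% put sample 2 above its replicates and sample 3 (25.8 to 38.2) next to the adductor samples. Pelvic Fin, which the labels give as a separate tissue, had shares of 13.3%, 13.8% and 25.98%, all below these 4 muscle samples.

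Adductor Skeletal Muscle had a mean share of 23.7% ± 8.08 (SD, n = 4), 22.1 percentage points below Pelvic Fin Skeletal Muscle. Its samples held 12, 19, 26 and 55 counts of smad4aa1. For smad4aa2 they held 26, 46, 153 and 229. smad4aa2 was ahead in every sample, with shares of 31.6% (17.5 to 48.7), 29.2% (18.6 to 41.8), 14.5% (9.71 to 20.6) and 19.4% (14.9 to 24.4). The highest adductor sample, at 31.6%, lay just under the lowest sample of Pelvic Fin Skeletal Muscle, at 31.7%.

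Extraocular Muscle, the small muscles that turn the eye, had a mean share of 23.5% ± 11.8 (SD, n = 3). The smad4aa1 counts were 150, 30 and 55. The smad4aa2 counts were 255, 153 and 270. Sample 1 stood at 37.0% (32.3 to 41.9), and samples 2 and 3 at 16.4% (11.3 to 22.6) and 16.9% (13.0 to 21.5). Sample 1 is one of the libraries in which inhibin and myostatin probes were counted together; without it the mean was 16.7% ± 0.375 (SD, n = 2).

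Red Skeletal Muscle, the slow, oxidative swimming muscle, had a mean share of 19.0% ± 13.8 (SD, n = 3). It held 11, 3 and 11 counts of smad4aa1, none above the limit of detection. It held 131, 17 and 21 counts of smad4aa2. The shares were 7.75% (3.93 to 13.4), 15% (3.21 to 37.9) and 34.4% (18.6 to 53.2), so at this depth the upper end is poorly bounded in samples 2 and 3, both of which stood apart. Sample 1, the only one that did not, had the lowest share of the 22 muscle samples.

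**Figure D1:**
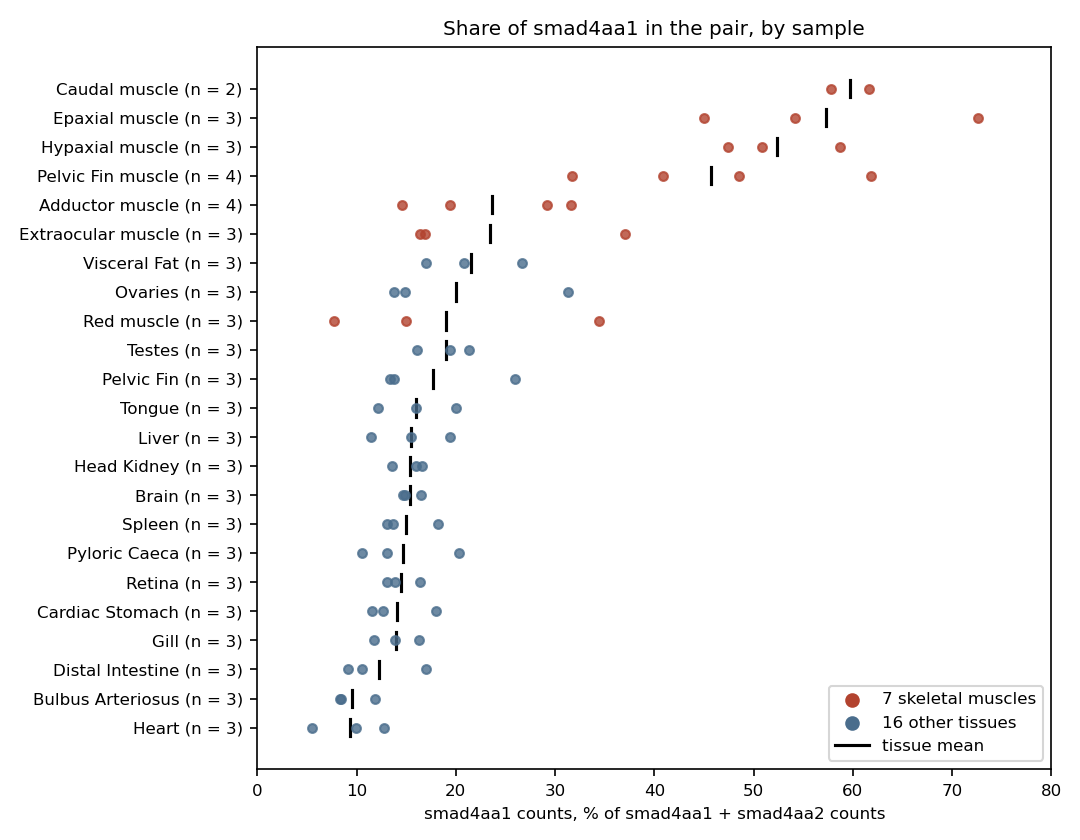
Share of smad4aa1 in the pair's counts (x axis, percent) in each sample of 23 tissues, ordered by tissue mean (black bar); red points are skeletal muscle, blue points other tissues. The caudal, epaxial, hypaxial and pelvic fin muscles lie between 31.7% and 72.6%, and the 48 samples of other tissues between 5.49% and 31.3%.

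In the order of mean shares the gap from the pelvic fin to the adductor muscle was the only one of 22 between neighbours that exceeded the larger of the neighbours' SDs. After it came Extraocular Muscle, then Visceral Fat (21.5% ± 4.88), Ovaries (19.97% ± 9.80), Red Skeletal Muscle and Testes (19.0% ± 2.62; SD, n = 3 each). The lowest places belonged to the heart: Bulbus Arteriosus, the elastic outflow chamber, had 9.55% ± 1.98 and Heart 9.38% ± 3.65 (SD, n = 3 each). Heart, which is cardiac muscle, thus stood at the opposite end of the order from the trunk muscles. However, smad4aa1 held 5, 7 and 10 counts in Heart 1, Heart 3 and Bulbus Arteriosus 2, not above the limit of detection. Tongue had 16.02% ± 3.94 (SD, n = 3). In 15 of the 22 muscle samples the share exceeded the highest share of the other tissues, 31.3% in Ovaries 3. smad4aa1 was counted above smad4aa2 in 7 muscle samples and in 0 of the 48 others. All remaining tissues had mean shares from 12.2% (Distal Intestine) to 17.7% (Pelvic Fin).

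Without the libraries that stood apart, the mean shares were 59.7% in the caudal (n = 2), 58.8% in the epaxial (n = 2), 49.1% in the hypaxial (n = 2) and 44.8% in the pelvic fin muscle (n = 3). They were 21.04% in the adductor (n = 3), 16.7% in the extraocular (n = 2) and 7.75% in the red muscle (n = 1). The same 4 muscles stayed above the same 3. Subtracting each sample's mean negative control gave 60.4%, 58.0%, 52.5% and 45.4% for the first 4 and 18.5%, 22.04% and 10.2% for the adductor, extraocular and red muscles. The authors' deposited table of normalized signal, which holds a value per tissue, gave shares of 59.7%, 57.8%, 52.3%, 45.6%, 20.4%, 22.3% and 16.5% in that order. For most genes its values derive from these same counts, so the shares from it are no independent check. Its adductor values match the counts of 47 of 49 genes only with sample 1 left out.

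The level of smad4aa1 varied over a wider range among muscles than that of smad4aa2. Between the lowest and highest muscle means, smad4aa1 spanned 3.49 on the log2 scale, or 11.2-fold. Single libraries set the low end: the span was 26.5-fold without Red Skeletal Muscle 3 and 17.0-fold without Extraocular Muscle 1. For smad4aa2 the span was 1.28, or 2.43-fold. Among the 16 other tissues the spans were 2.15 for smad4aa1 and 2.08 for smad4aa2. The muscle levels move with the scaling: scaled to the other pathway genes, muscle means ran from 28.4 (red) to 245 (caudal) for smad4aa1 and from 131 to 188 for smad4aa2 on that scale, so the lowest smad4aa1 mean was that of the red rather than the extraocular muscle.

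In Caudal Skeletal Muscle the reference-scaled counts of smad4aa1 were 740 and 722. Epaxial Skeletal Muscle had 443, 926 and 361. Hypaxial Skeletal Muscle had 635, 568 and 303. Epaxial samples overlapped both others, and the caudal samples lay above the hypaxial ones, with means of 731 ± 12.7 (SD, n = 2), 577 ± 305 and 502 ± 175 (SD, n = 3 each). Pelvic Fin Skeletal Muscle had 140, 669, 163 and 213, a mean of 296 ± 250 (SD, n = 4) that sample 2 raises: without it the mean was 172. Adductor Skeletal Muscle had 119, 90.5, 67.8 and 82.6, a mean of 90.0 ± 21.6 (SD, n = 4). Its range lay below that of the pelvic fin muscle without meeting it, although the gap between the means was within the larger SD. Red Skeletal Muscle had 22.4, 32.8 and 154 (mean 69.7 ± 73.2, SD, n = 3), and Extraocular Muscle 109, 21.03 and 65.0 (mean 65.1 ± 44.2, SD, n = 3). In these 2 muscles the samples ran from the level of other tissues to above it. However, no red sample had smad4aa1 above the limit of detection. The 154 of red sample 3 is 11 counts divided by a factor of 0.0714.

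For smad4aa2, Caudal Skeletal Muscle had 541 and 450 reference-scaled counts, with a mean of 496 ± 64.2 (SD, n = 2). Hypaxial Skeletal Muscle had 446, 550 and 336 (mean 444 ± 107, SD, n = 3). Epaxial Skeletal Muscle had 375, 349 and 441 (mean 388 ± 47.1, SD, n = 3). By reference scaling, all 8 of these samples lay above every sample of the other tissues. Adductor Skeletal Muscle had 258, 219, 399 and 344 (mean 305 ± 81.4, SD, n = 4). Pelvic Fin Skeletal Muscle had 202, 412, 351 and 225 (mean 298 ± 100, SD, n = 4). The adductor and pelvic fin muscles, 22.1 percentage points apart in copy share, thus had overlapping levels of smad4aa2 and means that differed by less than their SDs. Red Skeletal Muscle had 267, 186 and 294 (mean 249 ± 56.3, SD, n = 3), and Extraocular Muscle 186, 107 and 319 (mean 204 ± 107, SD, n = 3). Both overlapped with other tissues. This order of muscles rests on reference scaling. Scaled to the positive controls, the highest smad4aa2 mean was that of the extraocular muscle (207 on that scale) and the lowest that of the red muscle (76.7).

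**Figure D2:**
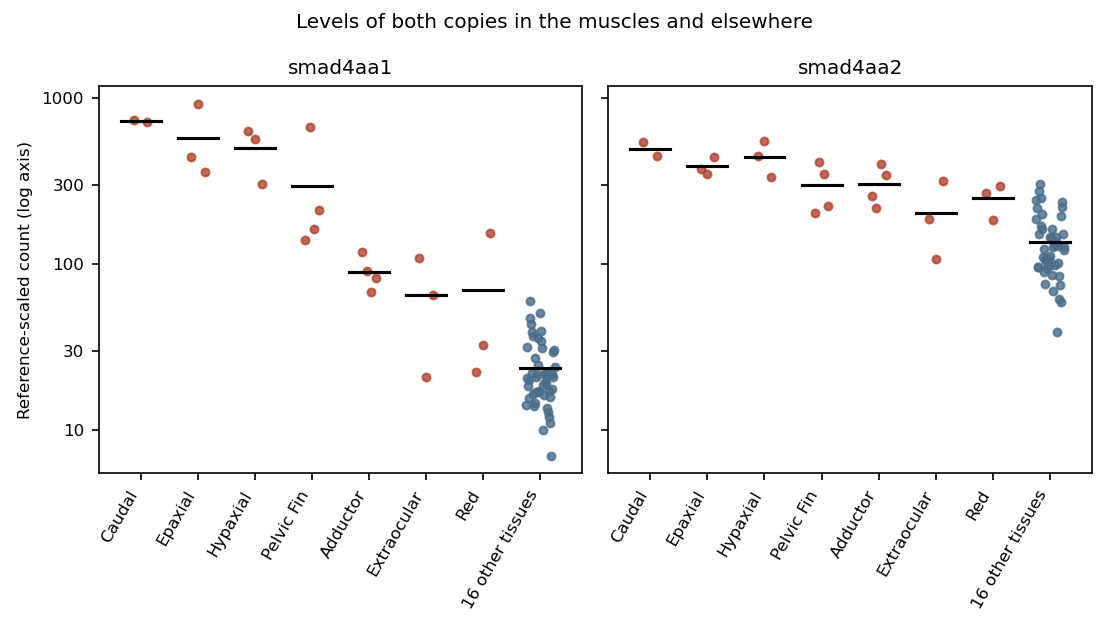
Reference-scaled counts (log axis) of smad4aa1 (left) and smad4aa2 (right) in each sample of the 7 skeletal muscles and in the 48 samples of 16 other tissues; bars are means over samples. The muscle means run from 65.1 to 731 for smad4aa1 and from 204 to 496 for smad4aa2.

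Samples of a muscle also differed in their amount of reference RNA. In 6 of the 7 muscles, and in 7 of the 16 other tissues, the sample with the highest reference-gene factor had the lowest share. The exception among muscles was Adductor Skeletal Muscle, where sample 3 had a lower share than sample 4. The factor differed between muscles too: Extraocular Muscle had factors of 1.37, 1.43 and 0.847, and the other 6 muscles from 0.0714 to 0.815. Taken as deviations from the muscle's mean, the log2 copy ratio and the log2 factor had a Pearson r of −0.67 over the 22 muscle samples. The caudal samples had factors of 0.216 and 0.129 and shares of 57.8% and 61.6%. Red samples 2 and 3 had factors of 0.0915 and 0.0714 and shares of 15% and 34.4%, with smad4aa1 not above the limit of detection. The part of this factor in the share was not tested.

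**Figure D3:**
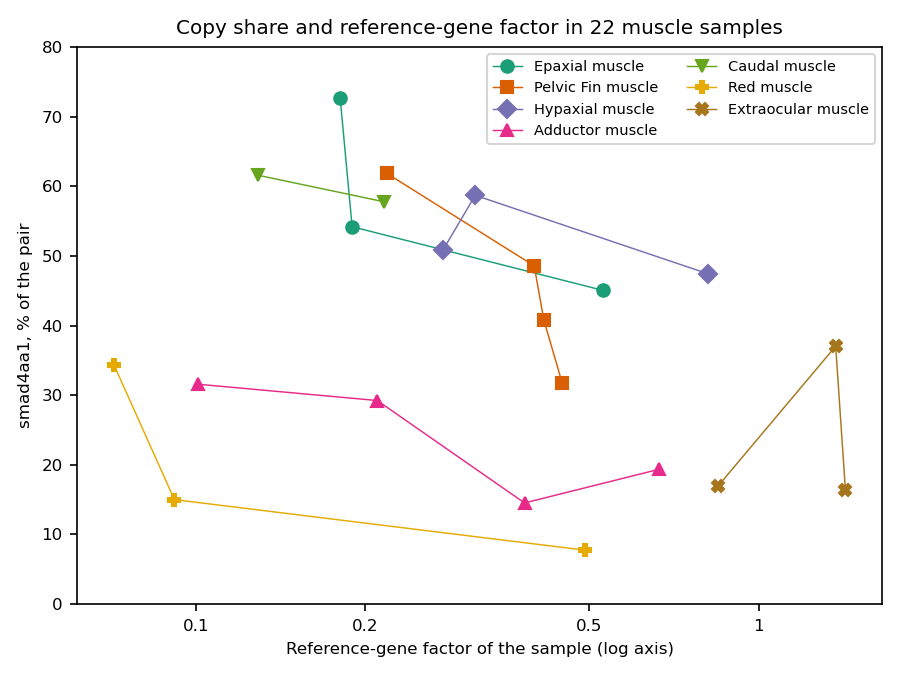
Share of smad4aa1 in the pair's counts (y axis, percent) against the reference-gene factor of the sample (x axis, log scale) in 22 muscle samples; lines join samples of a muscle in order of the factor. Within 6 of 7 muscles the sample farthest right is the lowest. Adductor sample 1 (factor 0.101) and red samples 2 and 3 (0.0915 and 0.0714) lie left of every caudal, epaxial, hypaxial and pelvic fin sample (lowest factor 0.129).

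The pair was next compared between skeletal muscle and the other tissues, a contrast that the choice of genes did not use but that rests on the same muscle counts, so it is not independent evidence. Counts were summed per tissue and the 7 muscles, with caudal and epaxial as separate units, set against 16 tissues with edgeR's quasi-likelihood test. smad4aa1 was higher in muscle, at 333 ± 273 (SD, n = 7 tissues) against 23.7 ± 9.68 (SD, n = 16), by log2 3.67 ± 0.41 (SE; 12.7-fold, adjusted p = 6.46e-08, edgeR). All 7 muscle means exceeded the highest other tissue, Brain at 50.4, but without Red Skeletal Muscle 3 the red mean was 27.6, and without Extraocular Muscle 1 the extraocular mean was 43.0, both below Brain. No sample of Red Skeletal Muscle had smad4aa1 above the limit of detection. smad4aa2 was 341 ± 106 in muscle against 137 ± 56.9, higher by log2 1.32 ± 0.27 (SE; 2.5-fold, adjusted p = 0.00024, edgeR), with 5 of 7 muscles above Brain. Of all 49 genes, 28 (57.1%) were called, all of them higher in muscle, and the median gene was higher by 1.13, so that relative to the median smad4aa1 was higher by 2.53 and smad4aa2 by 0.19.

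smad4aa1 kept this direction and call under all 15 alternatives tried, from log2 1.22 (scaled to the positive controls) to 4.31 (within set C, defined below). smad4aa2 did not. Scaled to the other pathway genes of the panel it was at −0.22 (adjusted p = 0.44, edgeR), with TMM factors at −0.17 and with DESeq2 at −0.21. Scaled to the positive controls it was lower in muscle, at −0.89 (adjusted p = 0.0323, edgeR). The median of all genes moved with the scaling, to −0.29 with pathway scaling and −0.87 with the positive controls. Relative to the median, smad4aa1 was higher by 1.30 to 3.00 and smad4aa2 stood between −0.07 and 0.53 over the 15 alternatives.

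The authors' deposited table has a constant scale within sets of tissues, which its match to the counts separates into set A (39 samples of 13 tissues, 9 of them muscle), set B (12 samples, none muscle) and set C (11 samples: Caudal and Red Skeletal Muscle, Heart and Gill); 8 samples of Pelvic Fin and Adductor Skeletal Muscle could not be placed. The muscles of set A are the epaxial, hypaxial and extraocular. Within set A smad4aa1 was higher in muscle by log2 3.62 (adjusted p = 0.000147, edgeR). Within set A smad4aa2 was higher by 1.22 and missed the threshold (adjusted p = 0.0876, edgeR). With the sets as a block the differences were 3.83 and 1.23 (adjusted p = 5.78e-06 and 0.0088, edgeR). The unplaced samples, all of them muscle, formed a block of their own. Set B held no muscle, so this blocked contrast rests on the muscles of sets A and C.

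The copy ratio does not depend on the scaling. The reference-gene factor itself differed between the classes, with medians of 0.349 over the muscle samples and 1.72 over the others. Within muscles the log2 copy ratio of smad4aa and the log2 factor had a Pearson r of −0.67. The part of the factor in the ratio was not tested. The change of the ratio between muscle and other tissues was tested for 21 duplicate pairs, as copy by class with each tissue keeping its own level. The ratio of smad4aa1 to smad4aa2 was 3.44-fold higher in muscle, by log2 1.78 ± 0.35 (SE; 95% interval 1.06 to 2.50; adjusted p = 0.000554, edgeR's quasi-likelihood test). The mean share was 40.2% ± 17.6 (SD, n = 7 tissues) in muscle against 15.2% ± 3.28 (SD, n = 16). Of the 7 muscles, 6 had means above 21.5%, the highest mean of the other tissues, in Visceral Fat, and Red Skeletal Muscle did not. From counts summed per tissue, which the edgeR test used, Visceral Fat was at 24.6%. By that measure the adductor (19.8%) and red muscles (12.9%) were below it and the extraocular muscle (25.7%) just above. smad4aa was the only 1 of 21 pairs called by edgeR (4.76%), while 4 pairs had an unadjusted p under 0.05. The pair was chosen for its share in these same muscle counts, so neither this place nor the tests of its ratio are independent evidence. An exact permutation test of the tissue means over 245157 regroupings gave p = 0.000196 for smad4aa (two-sided, adjusted p = 0.0041). That test called 4 of the 21 pairs.

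The ratio held its direction in the alternatives, at 2.03 within set A (adjusted p = 0.0016, edgeR), 1.65 without the libraries of joint inhibin and myostatin counts and 1.71 without those of few genes (adjusted p = 0.0024 and 0.0029, edgeR). Within set C, which sets the caudal and red muscles against Heart and Gill, it was 1.95 and missed the threshold (adjusted p = 0.645, edgeR).

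**Figure D4:**
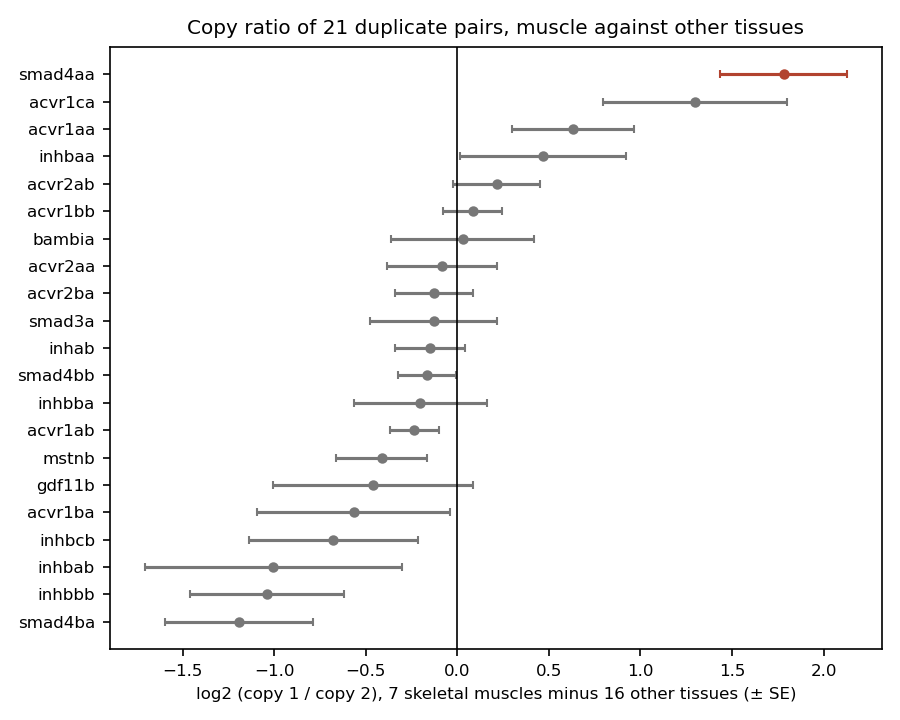
Difference of the log2 copy ratio (copy 1 over copy 2) between 7 skeletal muscles and 16 other tissues for 21 duplicate pairs, with bars of 1 SE from edgeR's fit. smad4aa (red) has the highest value, 1.78, and smad4ba the lowest, −1.19.

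The other common Smads behaved differently in their ratios. For smad4ba1 and smad4ba2, copies on ancestral chromosome 2a, the ratio was lower in muscle by log2 −1.19 ± 0.40 (SE), which missed the threshold (adjusted p = 0.0709, edgeR). smad4ba2 was above the limit of detection in 3 of 22 muscle samples and 5 of 48 others, with median counts of 5.5 and 7, so values that rest on it are near background. For smad4bb1 and smad4bb2 it was −0.17 ± 0.16 (SE; 95% interval −0.50 to 0.16). smad4ab2 has no probed partner, since smad4ab1 is listed without a probe. In level with reference scaling, 3 of the 7 common Smads were called in muscle, all higher, beside 28 of all 49 genes (57.1%). They were the smad4aa pair and smad4ba2. The latter was at 31.8 ± 24.8 (SD, n = 7 tissues) against 5.04 ± 2.46 (SD, n = 16), by log2 2.21 (adjusted p = 1.11e-05, edgeR). The call of smad4ba2 was lost with pathway scaling (0.77, adjusted p = 0.0727), TMM (0.79, adjusted p = 0.084) and the positive controls (0.24, adjusted p = 0.622, all edgeR). smad4ab2 was at 1.03 (adjusted p = 0.0744), smad4ba1 at 0.85 (0.102), smad4bb1 at 0.28 (0.567) and smad4bb2 at 0.45 (0.331), none called by edgeR with reference scaling. smad4bb1 was called lower in muscle with pathway scaling (−1.16, adjusted p = 0.0267), TMM (−1.12, adjusted p = 0.0345) and the positive controls (−1.81, adjusted p = 0.0129, all edgeR). With the positive controls edgeR also called smad4bb2 (−1.68, adjusted p = 0.0144) and smad4ba1 (−1.36, adjusted p = 0.039) lower. smad4ab2 was called under none of these scalings. With reference scaling the median over the 7 was 1.03, beside 1.13 over the 49 genes.

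The rest of the pathway, by role, was called as follows with reference scaling: 7 of 15 ligands, the 1 antagonist, 2 of 2 decoy receptors, 6 of 10 type I and 4 of 7 type II receptors, 3 of 3 receptor-regulated Smads, 0 of 2 inhibitory Smads and 2 of 2 activin beta C genes, all higher in muscle. These counts stand beside 28 of all 49 genes (57.1%), and no list was tested as a set. With pathway scaling 5 of the 49 genes were higher and 7 lower. By size of the log2 difference smad4aa1 came second of 49, after mstna1, a myostatin that restrains muscle growth (4.71), and before fsta, the activin and myostatin antagonist follistatin (3.27). smad4aa2 came 21st.

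Among muscles alone the log2 copy ratio of smad4aa, from counts summed per muscle, spanned 3.29 between the highest and lowest muscle, which ranked 4 of 21 pairs. Its low end is Red Skeletal Muscle, where no sample had smad4aa1 above the limit of detection; without that muscle the span was 2.55 and ranked 6 of 21. Wider spans, named after their values were seen, belonged to inhbbb (4.24), inhbcb (3.57) and inhbab (3.41), activin beta chain genes. Over all samples the lower copy averaged 53.4 counts in inhbbb, 14.8 in inhbcb and 12.6 in inhbab, beside 60.3 in smad4aa. The spans of inhbcb and inhbab thus rest on low counts. Among the 16 other tissues smad4aa spanned 1.67 and ranked 16 of 21. The spans of smad4ba and smad4bb among muscles were 2.16 and 0.63.

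**Figure D5:**
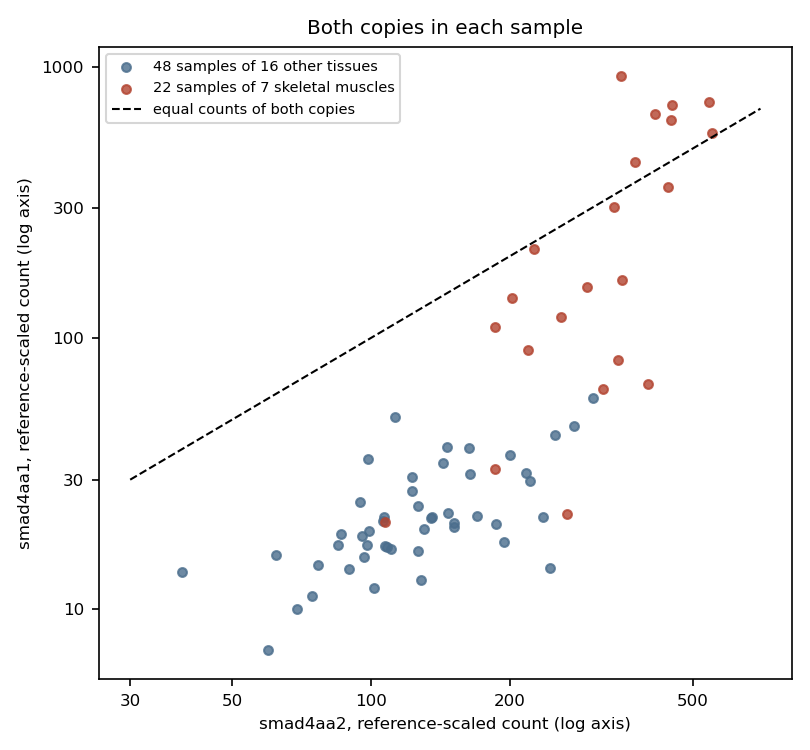
Reference-scaled counts of smad4aa1 (y axis) against smad4aa2 (x axis), both on log scales, in 70 samples; red is skeletal muscle, blue other tissues, and the dashed line marks equal counts. The 48 samples of other tissues lie below the line, and 7 of the 22 muscle samples lie above it.

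Outside muscle both copies varied between tissues. Over the 48 samples of 16 tissues, edgeR's quasi-likelihood F-test gave F = 4.06 for smad4aa1 (adjusted p = 0.000288) and F = 6.85 for smad4aa2 (adjusted p = 1.21e-06), where all 49 genes (100%) were called. For smad4aa1 the call was lost with pathway scaling (adjusted p = 0.192) and with DESeq2 (adjusted p = 0.136). The copy ratio was not called among these tissues (F = 1.86, adjusted p = 0.0713, edgeR), while 16 of 21 pairs (76.2%) were. It was called when Ovaries 2, Ovaries 3, Distal Intestine 3 or Pyloric Caeca 1 was left out (F = 2.12, 2.10, 2.12 and 2.05; adjusted p = 0.0369, 0.0408, 0.0411 and 0.0467, edgeR).

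In level, smad4aa1 was highest outside muscle in Brain, at 50.4 ± 8.47 reference-scaled counts, then in Testes at 35.2 ± 4.06 and Liver at 32.7 ± 9.34. Ovaries had 28.5 ± 19.7, Visceral Fat 27.5 ± 7.36 and Tongue 25.1 ± 5.01. Bulbus Arteriosus had 23.1 ± 6.13, Heart 22.2 ± 8.82, Retina 20.3 ± 1.34, Spleen 19.3 ± 6.97, Pelvic Fin 19.3 ± 4.89, Gill 18.1 ± 2.30 and Head Kidney 17.5 ± 3.31. The gut was lowest, with Cardiac Stomach at 15.1 ± 4.60, Distal Intestine at 14.04 ± 2.85 and Pyloric Caeca at 11.3 ± 4.40 (SD, n = 3 in each tissue). In the order of all 23 tissues, only the gap from Brain to Testes exceeded the larger of the neighbours' SDs.

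smad4aa2 was also highest in Brain, at 277 ± 25.9, followed by Bulbus Arteriosus at 217 ± 21.2 and Heart at 216 ± 28.7. Liver had 178 ± 20.2, Testes 151 ± 11.1, Tongue 133 ± 15.5 and Retina 122 ± 19.9. Gill had 115 ± 32.0, Spleen 107 ± 16.9, Pelvic Fin 107 ± 59.2, Ovaries 106 ± 7.33, Distal Intestine 105 ± 21.8, Visceral Fat 99.95 ± 6.35, Head Kidney 96.9 ± 17.7 and Cardiac Stomach 93.9 ± 29.5. Pyloric Caeca was again lowest, at 65.5 ± 8.0 (SD, n = 3 in each tissue). Of the 22 gaps between neighbours over all 23 tissues, 3 exceeded the larger SD, those from Epaxial to Adductor Skeletal Muscle, from Liver to Testes and from Testes to Tongue, and in each the samples still overlapped.

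Each of these 16 tissues was set against the mean of the other 15, with p-values adjusted over 784 gene and tissue pairs, of which 36.1% were called (19.9% higher, 16.2% lower). In Brain both copies were higher, smad4aa1 by log2 1.26 ± 0.25 and smad4aa2 by 1.19 ± 0.19 (SE; adjusted p = 0.000118 and 6.47e-06, edgeR). In Pyloric Caeca both were lower, smad4aa1 at −1.01 ± 0.31 and smad4aa2 at −1.03 ± 0.24 (SE; adjusted p = 0.00928 and 0.001, edgeR). In Heart and Bulbus Arteriosus smad4aa2 was higher, by 0.81 and 0.82 (adjusted p = 0.00227 and 0.00178, edgeR), where smad4aa1 was at −0.05 and 0.06 and not called. In Heart 1, Heart 3 and Bulbus Arteriosus 2 smad4aa1 was not above the limit of detection. In Testes smad4aa1 was higher by 0.71 (adjusted p = 0.0312, edgeR) and smad4aa2 was at 0.26. The difference between the copies within a tissue was not tested. Each copy was called in few tissues, smad4aa1 in 3 and smad4aa2 in 4 of 16. These calls rest on reference scaling. With pathway scaling none of them held: Head Kidney was called higher for both copies and Visceral Fat lower for smad4aa2. With TMM the smad4aa1 call in Testes held, beside the same calls in Head Kidney and Visceral Fat. Scaled to the positive controls edgeR called each copy in 0 tissues, with an unadjusted p under 0.05 in 5 for smad4aa1 and in 3 for smad4aa2. Leaving out Ovaries 3 made the count for smad4aa1 5, and leaving out Pelvic Fin 3 made that for smad4aa2 7.

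As a description, the other pathway genes were ranked by Pearson r with each copy over the 23 tissue means of log2(reference-scaled count + 10), points that share reference factors. For smad4aa1 the 4 highest were fsta (0.94), smad4aa2 (0.88), acvr1ca2 (0.87) and acvr1aa1 (0.86). By a note in the authors' gene list the fsta probe reads 2 follistatin loci, which that list puts on chromosomes 6 and 11 and on ancestral chromosome 9a, as it does the smad4aa pair. On the same chromosomes and block, smad2a2 came 17th for smad4aa1 (0.69). For smad4aa2 the 4 highest were the type II receptor acvr2ab2 (0.88), the receptor-regulated Smad smad3a1 (0.88), smad4aa1 (0.88) and the activin beta B gene inhbbb2 (0.87). With pathway scaling fsta stayed first for smad4aa1 (0.78), followed by inhbcb2 (0.69), mstna1 (0.66) and acvr1ca2 (0.61), and smad3a1 came first for smad4aa2 (0.63). The r between the copies then fell to 0.11, from 0.88. Over the 16 other tissues alone the first was smad2a2 for smad4aa1 (0.80) and smad3a1 for smad4aa2 (0.84), with fsta 37th for smad4aa1 (0.24).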

How the data were processed

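RNA of 23 tissues was measured in 70 samples. The authors deposited raw NanoString counts, whole numbers per probe and sample, not normalized. A second table the authors deposited holds normalized signal with replicates pooled per tissue, by a method not given in the sources used here. Its values equal a set's constant times the geometric mean of reference-scaled counts for most genes, and it was used for sets and shares only. No genome build is named in the files, so no coordinates are printed.

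The genes and lists were chosen with earlier results of these data known. edgeR 4.0.16 (quasi-likelihood, R 4.3.3) was run on counts with reference-gene offsets: tissue sums for 7 muscles against 16 tissues, copy by class for 21 duplicate pairs (names that differ only in the last digit), and F-tests among 16 tissues. Two-sided p-values were adjusted by Benjamini-Hochberg over all 49 genes, 21 pairs or 784 gene and tissue pairs, with a threshold of 0.05. Alternatives were pathway, ef1a with tbp, positive control, TMM and DESeq2 1.42.0 scaling, limma 3.58.1 with pseudocounts of 10 and 50, a mean count of at least 20, subtraction of negative controls, sample sets, an exact permutation test, leaving out each replicate, and, chosen after seeing the data, set C, the authors' signal, the libraries that stood apart, spans of levels and ratios among muscles without a sample or the red muscle, and other scalings of the remaining common Smads. The members, the other smad4 genes, the 4 genes of highest r and up to 3 called genes of largest difference were named. Simulated data had fixed effect sizes not taken from these counts. On them the muscle contrast recovered 9.2 of 10 changed genes of 49, with 0.25 false calls, and the muscle ratio test 3.9 of 4 pairs of 21, with 0.2 false. For the muscle ratio test, both copies of an unchanged pair had the same mean and the same simulated deviation in each tissue. In the measured counts, 16 of 21 ratios were called among the other tissues, so these rates need not hold for them. The ratio test among the 16 other tissues recovered 4.6 of 6.6 changed pairs per draw, with 0.3 false. Replicates were no copies (lowest chi-squared per degree of freedom 1.6). Python 3.11.15 with scipy 1.17.1 and matplotlib 3.10.9 gave intervals and figures.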

Additional observations from a re-analysis of the deposited data

Results flagged for a closer look

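In Pelvic Fin Skeletal Muscle the smad4aa1 level of sample 2, 669 reference-scaled counts, lay far from its 3 replicates (140 to 213), with a gap of 0.862 of the range against a critical value of 0.829 for 4 samples. Chance flags about 5% of groups, and 6 values were checked. The ratio of smad4aa1 to smad4aa2 differed between skeletal muscle and the other tissues by log2 1.78 (adjusted p = 0.000554, edgeR, copy by class), as given above. The pair was chosen for its share in these same muscle counts, so this flag is not independent evidence.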

How the results depend on the processing

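smad4aa1 in muscle against other tissues kept its direction and call under all alternatives, and without each sample in turn (3.59 to 3.79). smad4aa2 turned to −0.22 with pathway scaling, −0.17 with TMM, −0.21 with DESeq2 and −0.89 with the positive controls, and missed the threshold within set A (1.22) and set C (1.24). The genes called there, 28, became 12 with pathway scaling (5 higher, 7 lower), 10 with TMM (4 and 6), 11 within set A and 12 within set C, where fewer samples were tested; DESeq2 called 20 (5 and 15) and the positive controls 21 (2 and 19). For the scalings the cause was not tested. The smad4aa ratio missed the threshold within set C (1.95), where 0 pairs were called by edgeR and 1 had an unadjusted p under 0.05; leaving out each sample gave 1.67 to 1.96. Pairs called, 1, became 4 with the permutation test and 2 without the libraries of joint counts; leaving out each sample gave 1 to 2, with 2 when Pelvic Fin Skeletal Muscle 4, Caudal Skeletal Muscle 1, Red Skeletal Muscle 1, Liver 3, Visceral Fat 3 or Cardiac Stomach 1 was left out.

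Among the 16 other tissues smad4aa1 missed the threshold with pathway scaling (F = 1.40) and with DESeq2 (likelihood ratio 21.02). Leaving out each sample gave F from 1.54 to 2.12 for the ratio. Tissues called for smad4aa1, 3, became 1 with pathway scaling, with ef1a and tbp and with negative controls subtracted, and 0 with the positive controls; for smad4aa2, 4, they became 2 with pathway scaling and TMM and 0 with the positive controls. The tissues differed too: with pathway scaling Head Kidney alone was called for smad4aa1, and Head Kidney and Visceral Fat for smad4aa2. Leaving out each sample gave 2 to 5 and 4 to 7. The median r between deviations of same-numbered samples was 0.007 over 360 pairs of tissues and numbers, beside −0.007 over 720 of different numbers. Same-numbered values ran from −0.64 to 0.78, so they cannot tell whether a number marks the same fish. The fit with replicate as a block gave F = 4.06 and 6.49 and, for the ratio, 1.89 (adjusted p = 0.0698, edgeR), with no call changed. Muscle shares moved by less than their SD under every alternative, but those SDs reached 14.04 percentage points. Leaving out 1 replicate cannot move a mean by more than its SD, so that check could not fail. It gave means of 11.4% to 24.7% in the red and 49.6% to 63.4% in the epaxial muscle. Precision is limited by counts near background in Red Skeletal Muscle and Adductor Skeletal Muscle 1.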
